A study of Mus musculus with 4 samples.

Results

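Signals of 10 genes of the bone morphogenetic protein (BMP) pathway were examined in mouse lens epithelium 24 h after UVB. They are the ligand genes Bmp2, Bmp4 and Bmp7, the receptor genes Bmpr1a, Bmpr1b and Bmpr2, the inhibitory Smad gene Smad6, and Id1, Id2 and Id3. The genes were chosen by name, and each of the 10 had 1 probe set annotated to it alone, among 19938 genes with such a probe set and 28944 probe sets in all. The question put to the data was whether a higher signal of the ligand gene Bmp2 was accompanied by higher signals of the genes that BMP signalling is known to switch on.

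The epithelia came from C57BL/6 male mice, 8 weeks old, of which the right eye received UVB at 30 mJ/cm2 over 60 s and the left eye, under aluminum foil, gave the control. Each of 2 independent experiments contributed 1 array of irradiated and 1 array of control epithelium, so that each group held 2 arrays. The study used 3 mice per experiment, and the sources used here do not say whether the RNA on an array came from 1 mouse or was pooled. The control is therefore the fellow eye of an irradiated animal, not an eye of an untreated mouse. All 7 markers of lens epithelium had signals above the array median in both controls, with Foxe3, a lens transcription factor, at 11.27 and 11.28. The same held for 10 of 14 photoreceptor markers and 10 of 14 retinal pigment epithelium markers. The criterion thus does not set lens epithelium apart from retina.

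BMP ligands bind a complex of type I receptors, such as those encoded by Bmpr1a and Bmpr1b, and a type II receptor, such as that of Bmpr2. The activated type I receptor phosphorylates Smad1, Smad5 and Smad9, which enter the nucleus with Smad4 and switch on genes that include Smad6, a feedback inhibitor, and the Id genes. Id proteins pair with basic helix-loop-helix factors and keep them off DNA. In the eye, Bmp4 and Bmp7 are known for their part in the formation of the lens, and BMP signalling is known to take part in the differentiation of lens fiber cells.

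RefSeq (GRCm38.p6) gave promoter windows for 7 of the 10 genes, 9 windows in all, and none for Bmp2, Bmp7 and Id1. The 250 bases before the annotated start are shown for Id2, Id3 and Smad6, since these targets are the genes in which a response to a BMP ligand was looked for. Capitals mark GGCGCC, a GC-rich motif of BMP Smads, and CAGAC or its reverse complement GTCTG, a Smad motif, searched on both strands. The windows are chr12:25096093-25096342 (minus strand), chr4:136143572-136143821 (plus strand) and chr9:64022060-64022309 (minus strand), each written 5′ to 3′ toward the gene.
Id2: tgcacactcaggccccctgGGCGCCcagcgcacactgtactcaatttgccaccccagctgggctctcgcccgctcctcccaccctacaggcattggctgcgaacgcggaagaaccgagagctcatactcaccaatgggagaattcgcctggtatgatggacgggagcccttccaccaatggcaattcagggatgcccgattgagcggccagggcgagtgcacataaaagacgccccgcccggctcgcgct
Id3: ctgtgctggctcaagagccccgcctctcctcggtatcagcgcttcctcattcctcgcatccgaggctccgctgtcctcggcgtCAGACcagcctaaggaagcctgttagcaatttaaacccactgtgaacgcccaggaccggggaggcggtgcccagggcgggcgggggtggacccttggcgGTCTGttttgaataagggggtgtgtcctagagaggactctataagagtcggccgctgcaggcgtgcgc
Smad6: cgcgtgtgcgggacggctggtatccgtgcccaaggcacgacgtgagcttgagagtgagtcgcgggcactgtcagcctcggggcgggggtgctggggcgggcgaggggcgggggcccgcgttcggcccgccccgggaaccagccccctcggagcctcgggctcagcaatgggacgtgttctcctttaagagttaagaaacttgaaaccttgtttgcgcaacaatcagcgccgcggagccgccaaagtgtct

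The Id2 window held 1 GGCGCC, starting 231 bases before the annotated start. The Id3 window held CAGAC 167 bases and GTCTG 68 bases before the start, and the Smad6 window held neither motif. Among all 32851 promoter windows of this length, 9.59% held GGCGCC and 42.2% held CAGAC or GTCTG, so that the second motif is common. Of the 9 windows, 3 held GGCGCC (those of Bmpr1a, Bmpr2 and Id2) and 3 held CAGAC or GTCTG (that of Id3 and 2 of Bmpr1b). A match of letters is a description of the window and does not show that a Smad binds there.

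The values are log2 signals that the authors normalized between arrays, and a difference of 1 on this scale is 2-fold. Signals of different probe sets are not comparable as amounts of RNA, so each gene is compared only with itself. In all 28944 probe sets the summed signal of the 2 arrays was the same in experiment 1 and experiment 2 within 0.02. The mean of each experiment had thus been set equal before deposit, and with it the SDs of the groups mirror each other. UVB was compared with control by limma, blocked on experiment so that right and left eyes were paired, with 1 residual degree of freedom. Because the deposited means were equal, a fit without the block counts its spread with 2, and its adjusted p is given where it changes a call. In 2 arrays against 2, an exact permutation test cannot give a two-sided p below 0.333, or below 0.5 when permuted within the 2 pairs. In bulk tissue, more RNA per cell and more cells of a kind cannot be told apart.

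Bmp2 had the highest UVB minus control difference of the 10 genes. Its control signals were 7.66 in experiment 1 and 7.33 in experiment 2, and its UVB signals were 8.02 and 8.35. Both UVB arrays lay above both controls, at group means of 7.50 ± 0.233 (SD, n = 2 arrays) and 8.19 ± 0.233 (SD, n = 2). The log2 difference was 0.36 in experiment 1, or 1.28-fold, and 1.02 in experiment 2, or 2.03-fold. The mean difference was 0.69 (1.61-fold, standard error 0.225, 95% interval -0.21 to 1.59), with an adjusted p of 0.371 in limma (unadjusted 0.0827). The increase of the mean was therefore not past the test, and the interval reached from 0.867-fold to 3.0-fold.

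The 2 experiments differed more in Bmp2 than in most probe sets. The difference in experiment 2 exceeded that in experiment 1 by 0.66, and 0.453% of all probe sets had a larger gap in either direction. The median gap over all probe sets was 0.090. By the size of the mean difference, 0.332% of all probe sets were higher than Bmp2.

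Bmp4, the gene of a close paralog of Bmp2, was higher after UVB in the same order of experiments. Its control signals were 8.61 and 8.47 and its UVB signals 8.83 and 8.97 in experiments 1 and 2, so that the groups did not overlap. The log2 difference was 0.22 in experiment 1 and 0.50 in experiment 2, with a mean of 0.36 (1.28-fold, standard error 0.0987, 95% interval -0.03 to 0.75). The adjusted p in limma was 0.357 (unadjusted 0.0593), and 1.77% of all probe sets had a higher mean difference. As for Bmp2, the larger difference was that of experiment 2.

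Bmp7, the ligand gene of another BMP subgroup, differed little between the groups. Its signals were 10.57 and 10.53 in control and 10.56 and 10.61 in UVB-irradiated epithelia, so that the groups overlapped. The log2 difference was -0.01 in experiment 1 and 0.08 in experiment 2, with a mean of 0.035 (95% interval -0.13 to 0.20, limma's adjusted p = 0.683). The upper end of this interval is 1.15-fold.

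**Figure D1:**
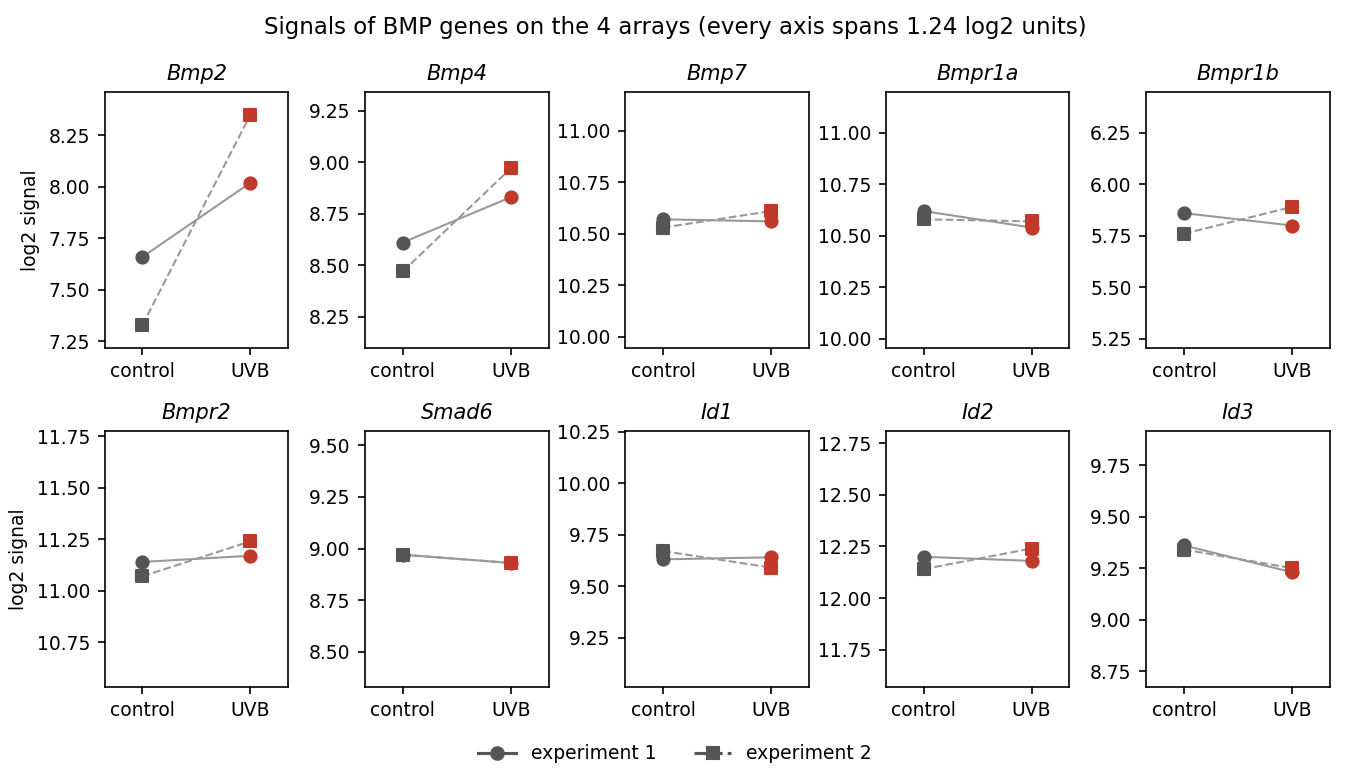
Log2 signals of the 10 BMP genes in control (grey) and UVB-irradiated (red) epithelia, with a line joining the arrays of each experiment (circles, solid line, experiment 1; squares, dashed line, experiment 2) and axes of equal span. Bmp2 and Bmp4 slope upward in both experiments and more in experiment 2, whereas the other 8 genes move by at most 0.17 in either experiment.

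Bmpr2, the gene of the BMP type II receptor, had the highest difference of the 3 BMP receptor genes. Its signals were 11.14 and 11.07 in control and 11.17 and 11.24 in UVB-irradiated epithelia, and both UVB arrays lay above both controls. The mean log2 difference was 0.10 (0.03 in experiment 1 and 0.17 in experiment 2, 95% interval -0.12 to 0.32, limma's adjusted p = 0.467). Centred on the median of each array, the difference was 0.08 and no longer of the same sign in both experiments.

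Bmpr1a and Bmpr1b, the type I receptor genes, differed by less than 0.05 in the mean. For Bmpr1a the signals were 10.62 and 10.58 in control and 10.54 and 10.57 after UVB, with a mean log2 difference of -0.045 (95% interval -0.19 to 0.10, limma's adjusted p = 0.577). For Bmpr1b they were 5.86 and 5.76 in control and 5.80 and 5.89 after UVB, with differences of -0.06 in experiment 1 and 0.13 in experiment 2. All 4 Bmpr1b signals were below the 25th percentile, where a change may be hidden by background, and the groups overlapped.

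The targets had smaller differences than Bmp2 in both experiments. For Id1 the signals were 9.63 and 9.67 in control and 9.64 and 9.59 in UVB-irradiated epithelia, with overlapping groups. The log2 difference of Id1 was 0.01 in experiment 1 and -0.08 in experiment 2, with a mean of -0.035 (95% interval -0.20 to 0.13, limma's adjusted p = 0.683). In experiment 2, where Bmp2 was 2.03-fold higher, Id1 was thus lower by 0.08. That value is from 1 pair of arrays, and the median gap between experiments over all probe sets was 0.090.

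Id2 signals were 12.20 and 12.14 in control and 12.18 and 12.24 in UVB-irradiated epithelia, again with overlapping groups. The log2 difference of Id2 was -0.02 in experiment 1 and 0.10 in experiment 2, with a mean of 0.040 (95% interval -0.15 to 0.23, limma's adjusted p = 0.699). Id2 was the Id gene with the highest upper bound, 1.18-fold, against 1.09-fold for Id1 and 1.01-fold for Id3.

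Id3 was lower after UVB in both experiments. Its signals were 9.36 and 9.34 in control and 9.23 and 9.25 after UVB, so that both UVB arrays lay below both controls. The log2 difference was -0.13 in experiment 1 and -0.09 in experiment 2, with a mean of -0.11 (0.927-fold, standard error 0.0305, 95% interval -0.23 to 0.01). Limma gave an adjusted p of 0.357 with the block, and of 0.0391 without it, the only adjusted p under 0.05 among the 10 genes in either fit. The direction is opposite to that of Bmp2. Of all probe sets, 17.1% had a lower mean difference than Id3, and 37.4% were lower in both experiments.

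Smad6, the feedback inhibitor, had signals of 8.97 in both controls and 8.93 in both UVB arrays. Its log2 difference was -0.04 in each experiment (95% interval -0.15 to 0.07, limma's adjusted p = 0.528). The upper end of the interval is 1.05-fold. The interval of Bmp2, from 0.867-fold to 3.0-fold, overlaps that of Smad6.

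**Figure D2:**
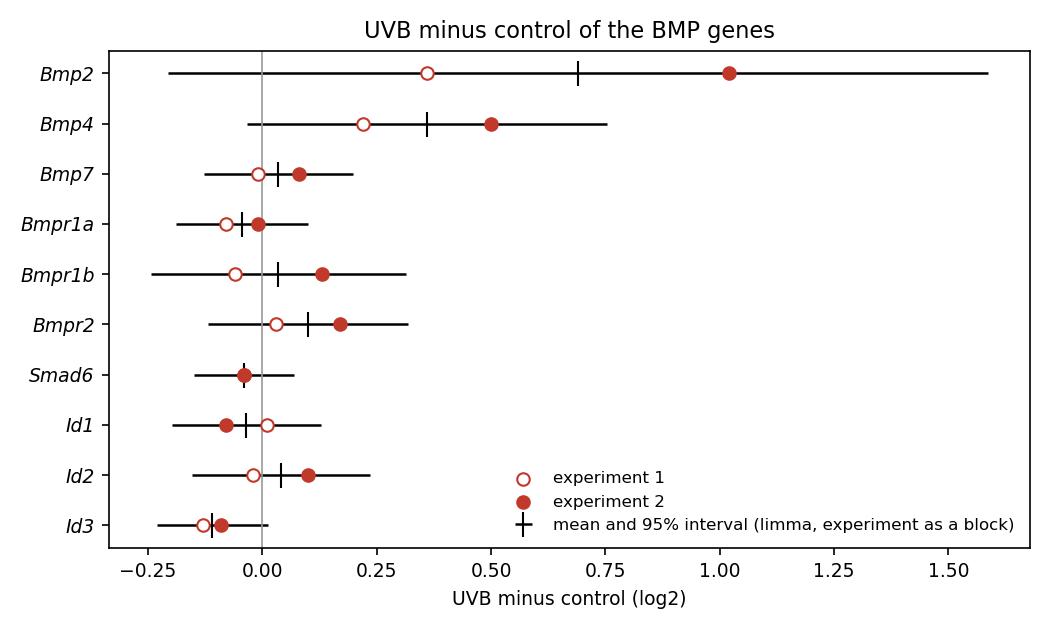
UVB minus control (log2) for each of the 10 genes in experiment 1 (open circles) and experiment 2 (filled circles), with the limma mean (tick) and its 95% interval (line) from the fit with the experiment as a block. All 10 intervals include 0, and the widest are those of Bmp2, from -0.21 to 1.59, and Bmp4, from -0.03 to 0.75.

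Of the 10 genes, 0 passed 1.8-fold with an unadjusted p of 0.01, the thresholds of the study's methods, which 0.0622% of all probe sets passed in limma with the block. At an adjusted p of 0.05 the count was 0 of 10, beside 0% of all probe sets, and 0 of the 10 had an unadjusted p under 0.05, which 13.4% of all probe sets had. Without the block the adjusted p called 1 of 10, Id3, against 17.6% of all probe sets. Bmp2, Bmp4 and Bmpr2 were higher in both experiments, 3 of 10 beside 24% of all probe sets. Bmpr1a, Id3 and Smad6 were lower in both, again 3 of 10, beside 37.4% of all probe sets. The first share is near that of the background and neither is a result about these genes. With the 75th percentiles made equal, 30.2% of all probe sets were higher and 29.5% lower in both, against 5 and 2 of the 10 genes, and with centring on the median 18.5% and 45.0%, against 2 and 4. Because the experiment means had been set equal, a same-sign difference in both experiments and groups that do not overlap are the same observation. The median difference of the 10 genes was 0.035, beside -0.020 over all probe sets.

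Other genes of the pathway, taken by name, showed no common direction. The lists held 54 genes that could be measured. In limma with the block, 0 of the 54 had an adjusted p under 0.05, beside the same 0% of all probe sets, and 4 of the 54 had an unadjusted p under 0.05, beside the same 13.4% of all probe sets. In both experiments 10 of the 54 were higher and 22 lower, beside the same 24% and 37.4% of all probe sets. The median log2 difference was -0.0275, beside -0.02 over all probe sets. Lower probe sets outnumbered higher ones on the arrays as a whole, so an excess of lower genes here or in the lists below is not a result about the pathway. Without the block, 5 of the 54 had an adjusted p under 0.05, a smaller share than the 17.6% of all probe sets.

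The other ligand genes included none with a difference like that of Bmp2. Of 11, 1 was higher and 6 were lower in both experiments, with differences between -0.24 and 0.16. Only 2 of the 11 had signals above the array median in both controls. On all 4 arrays 2 were below the 25th percentile, where a change may be hidden by background. Bmp3, an atypical BMP that opposes other BMPs, had signals of 6.92 and 6.82 in control and 6.58 and 6.68 after UVB, a mean log2 difference of -0.24 (limma's adjusted p = 0.361). Bmp10, known from the heart, had signals of 4.97 and 5.09 in control and 4.89 and 4.77 after UVB, a mean difference of -0.20. Its 4 signals were below the 25th percentile. Neither gene passed the test.

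Among 9 other receptor and co-receptor genes, 2 were higher and 6 lower in both experiments. Rgmb, a BMP co-receptor of the repulsive guidance family, had signals of 9.87 and 9.86 in control and 9.74 and 9.76 after UVB, a mean log2 difference of -0.12. Its adjusted p in limma was 0.357, or 0.0321 without the block. Acvr2a, a type II receptor shared by BMPs and activins, had a difference of -0.10 (adjusted p = 0.361, or 0.0436 without the block). The highest difference of the 9 was 0.16, that of the co-receptor gene Eng (0.31 in experiment 1 and 0.01 in experiment 2), named after its value was seen. Bambi, a decoy receptor that BMP signalling also induces, was also named afterwards and had a difference of 0.08.

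The secreted antagonists and modulators had differences of both signs. Of 18 measured, 4 were higher and 4 lower in both experiments, with a median log2 difference of -0.0125. Grem1, an antagonist that binds BMP ligands, had signals of 6.36 and 6.31 in control and 6.53 and 6.58 after UVB. Its mean difference was 0.22, with an adjusted p of 0.357 in limma (unadjusted 0.0309), or 0.0432 without the block. Fst, the gene of follistatin, which binds activins and some BMPs, had signals of 6.50 and 6.51 in control and 6.31 and 6.30 after UVB. The mean difference of Fst was -0.20, with an adjusted p of 0.357 in limma (unadjusted 0.0152), or 0.0210 without the block. Bmper, a secreted BMP-binding protein, had signals of 8.64 and 8.57 in control and 8.30 and 8.37 after UVB, a mean difference of -0.27 (adjusted p = 0.357). Grem1, Fst and Bmper were named for having 1 sign in both experiments, so groups without overlap follow from that choice. The adjusted p of each with the block was far from 0.05. Nog and Chrd, the genes of the antagonists noggin and chordin, were named after their values were seen, with differences of 0.08 and 0.10, that of Chrd at an adjusted p of 0.0287 without the block.

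The genes that carry the signal inside the cell had differences near 0. Among 10 Smad genes and regulators of Smads, differences lay between -0.11 and 0.045, with 2 higher and 4 lower in both experiments. Smad4, the common partner of the receptor-activated Smads, had signals of 10.71 and 10.72 in control and 10.67 and 10.66 after UVB, a difference of -0.05 (limma's adjusted p = 0.469). Smurf1, a ubiquitin ligase that marks BMP Smads for degradation, had a difference of -0.06 (adjusted p = 0.510). The lowest difference was that of Smad1, a receptor-activated Smad named after its value was seen, at 0 in experiment 1 and -0.22 in experiment 2.

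The 6 other target genes had differences as small as those of Smad6 and the Id genes. Atoh8, a helix-loop-helix factor, had signals of 6.94 and 6.97 in control and 7.07 and 7.04 after UVB, a log2 difference of 0.10 (limma's adjusted p = 0.371). Msx1, a homeobox factor, had signals of 8.88 and 8.85 in control and 8.76 and 8.79 after UVB, a difference of -0.09 (adjusted p = 0.389). Over the 4 and the 6 targets together, the 10 differences lay between -0.11 and 0.10, with a median of -0.0375. Of these 10, 1 was higher and 4 were lower in both experiments.

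**Figure D3:**
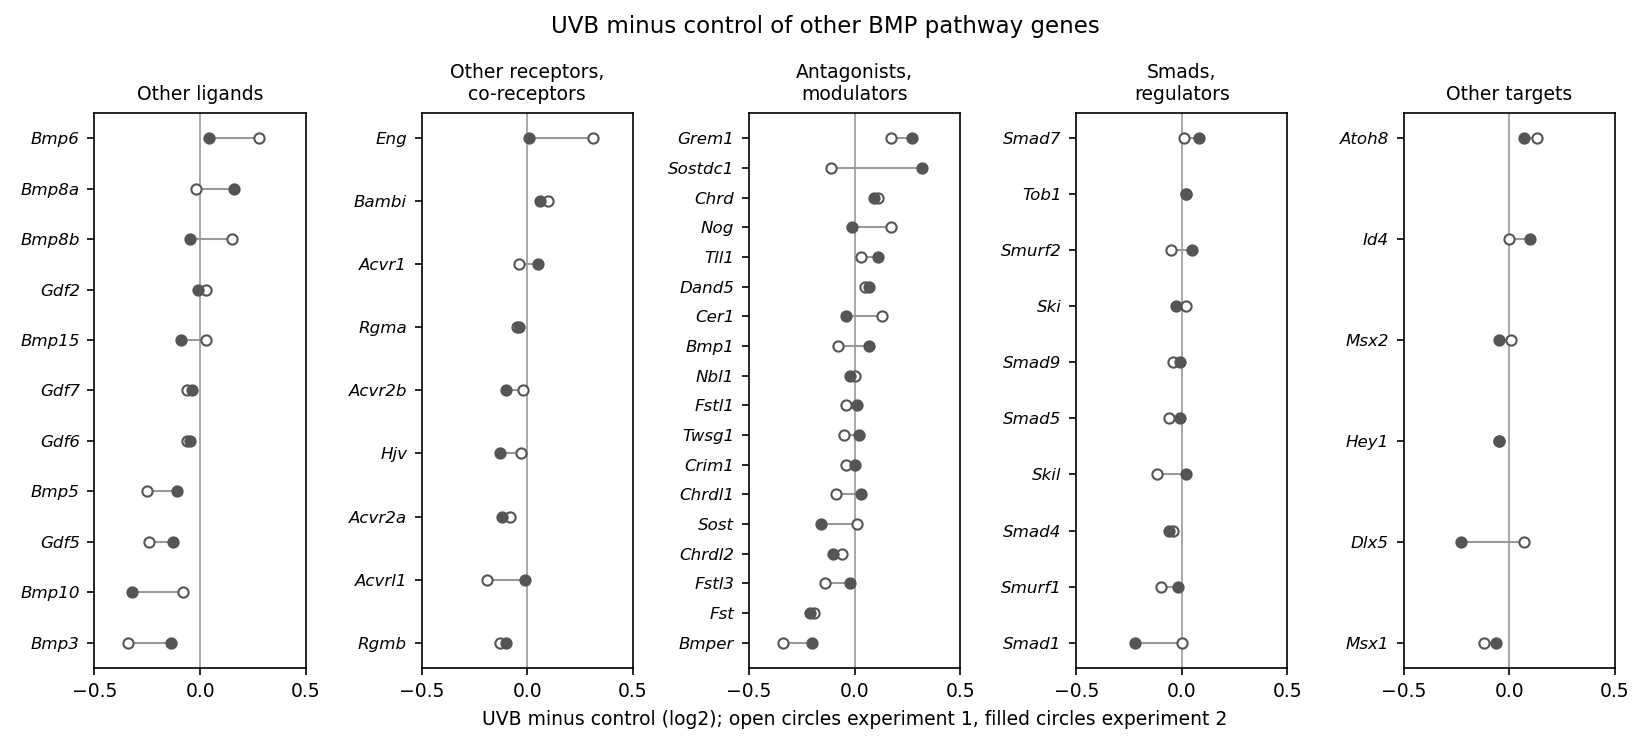
UVB minus control (log2) of 54 other BMP pathway genes by role, in experiment 1 (open circles) and experiment 2 (filled circles). The mean differences lie between -0.27 (Bmper) and 0.22 (Grem1), and in 22 genes the experiments are not of the same sign.

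Markers of other eye tissues were higher in the same arrays as Bmp2. Of 14 photoreceptor markers measured, 14 were higher in both experiments, with a median log2 difference of 0.57 in experiment 1 and 1.01 in experiment 2. Their summed linear signal was 8884 and 7369 in the controls and 13509 and 16352 in the UVB arrays of experiments 1 and 2. Such a sum is weighted toward the probe sets with high signals and is not an amount of RNA. None of the 14 was below the 25th percentile on all 4 arrays. The median difference of photoreceptor markers was thus larger in experiment 2, as were the differences of Bmp2 and Bmp4. Among these markers only Gnat2 had the larger difference in experiment 1 (0.37, against 0.29 in experiment 2). Nrl differed little between the experiments (0.57 and 0.64).

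Of 14 markers of the retinal pigment epithelium and its pigment, 13 were higher in both experiments, with medians of 0.77 and 0.90. Their summed signal was 3291 and 3375 in control and 7205 and 6951 in UVB arrays. Otx2, the homeobox factor that the study examined in lens epithelial cells, is 1 of these 14, with differences of 0.84 and 0.98. Unlike Bmp2, Rpe65, Lrat, Rgr, Rdh5, Rlbp1, Best1 and Tyr of this list had the larger difference in experiment 1. Otx2, Ttr, Tyrp1, Dct, Pmel and Mlana had it in experiment 2, and Mitf was at 0.06 and -0.18. Of 7 leukocyte markers, 4 were higher and 1, Itgam, was lower in both, with a median of 0.10, summed signals of 673 and 620 in control and 790 and 871 after UVB, and 2 of the 7 were below the 25th percentile on all 4 arrays. The largest leukocyte marker differences were those of Lyz2 (0.39 and 0.97) and Cd68 (0.45 and 0.73). The others were Adgre1 (0.18 and 0.29), Ptprc (0.01 and 0.19), Aif1 (0.16 and -0.10), Cd3e (-0.03 and 0.02) and Itgam (-0.21 and -0.18). Of 7 markers of ciliary body and iris, 6 were higher in both, with summed signals of 3179 and 2991 in control and 3133 and 3366 after UVB. Aqp1, with the highest signals of the 7 (10.75 and 10.71 in control), was lower, at -0.24 and -0.16, and weighs most in these sums.

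Cornea markers had a median difference of 0.33 in experiment 1 and of -0.09 in experiment 2, unlike Bmp2, with summed signals of 3650 and 3801 in control and 3752 and 3557 after UVB. Among these markers, Aldh3a1 had the highest signals, 11.64 in both controls and 11.55 in both UVB arrays, and weighs most in these sums. Of 6 endothelium markers, 1 was higher and 5 were lower in both, with summed signals of 817 and 801 in control and 771 and 783 after UVB. Lens epithelium markers had a median difference of -0.06, with summed signals of 27874 and 27595 in control and 27278 and 27555 after UVB. For 8 lens fiber markers the median was -0.05, with summed signals of 68898 and 69483 in control and 68202 and 67563 after UVB. According to the methods, neighbouring tissue such as retina was dissected away before the epithelium was taken. The part of RNA from these tissues in the signals of Bmp2 and Bmp4 was not tested.

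**Figure D4:**
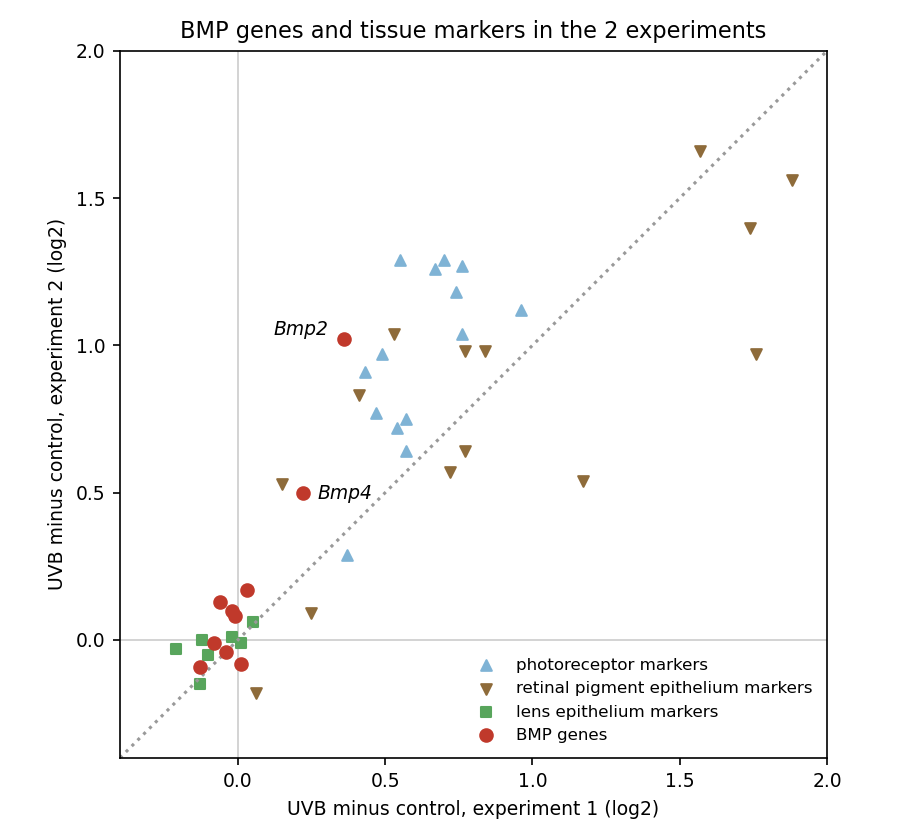
UVB minus control (log2) in experiment 1 (horizontal) and experiment 2 (vertical) for the 10 BMP genes and for markers of photoreceptors (14), retinal pigment epithelium (14) and lens epithelium (7), with equal differences on the dotted line. Bmp2 (0.36 and 1.02) and Bmp4 (0.22 and 0.50) lie above the line, and the other 8 BMP genes lie near the lens epithelium markers around 0.

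The genes with the pattern most like that of Bmp2 were found by the distance between their pairs of differences, over 2 experiments and 10790 genes with a mean signal at or above the median. The nearest was Hsd17b11, a dehydrogenase of steroid and lipid metabolism, at 0.37 in experiment 1 and 1.02 in experiment 2, a distance of 0.010. Next were Lyz2, the lysozyme gene of macrophages, at 0.39 and 0.97, and Crhbp, which binds corticotropin-releasing hormone, at 0.30 and 1.06. Gpm6a, a neuronal membrane glycoprotein, had differences of 0.31 and 1.08, and Slc6a13, a GABA transporter, of 0.36 and 0.92. Lyz2 is also on the list of leukocyte markers. None of these 5 was a member of the BMP lists, and their likeness rests on 2 differences per gene.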

How the data were processed

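Affymetrix gene arrays of 4 samples of mouse lens epithelium were analysed. The deposited values are log2 signals of probe sets, rounded and already normalized by the authors, for which the submitters' processing notes name Affymetrix Expression Console. For the version and the settings of that program, the sources used here give nothing. A human array is named in the methods, whereas the probes are annotated as those of a mouse array. Of 28944 probe sets, 21789 had 1 gene symbol, 1621 several and 5534 none, and a gene with several probe sets was given by that with the highest mean. The experiment number came from the sample titles, in which the arrays of experiment 1 carry none.

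All probe sets were fitted with limma 3.58.1 in R 4.3.3 (UVB against control, experiment as a block, two-sided, Benjamini-Hochberg adjustment over all probe sets). The block was taken because the methods compare eyes of the same mice. Deviations from the group means correlated at -0.998 between arrays of the same number, a consequence of the equal experiment means. The fit was also run on simulated data with independent noise on each array. Those data lack the equal experiment means, so the run does not test the fit under them. The 10 genes, the 5 lists of other pathway genes, the 8 marker lists and the rules were chosen with earlier results of these data known. Named from each list of other pathway genes were up to 3 genes that had 1 sign in both experiments and a size of at least 0.2, by p, or else the 2 with the smallest p. The number of arrays limits the precision, and p-values measure the spread between experiments. Alternatives were quantile normalization, equal 75th percentiles, centring on the median, the fit without the block, an intensity trend or robust prior, the mean of a gene's probe sets, only probe sets at or above the median level, other thresholds, each experiment alone, and leaving out each array without the block.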

Additional observations from a re-analysis of the deposited data

How the results depend on the processing

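The count of BMP genes with an adjusted p under 0.05 was 0 with the experiment as a replicate block and 1 (Id3) without it, and that of other pathway genes was 0 and 5 (Acvr2a, Rgmb and Fst lower, Chrd and Grem1 higher). All other alternatives gave 0 for both counts. The count past the study's thresholds stayed at 0 under each alternative, 1.5-fold with an unadjusted p of 0.05 included. With equal 75th percentiles, 5 genes were higher in both experiments, Bmp7 and Id2 in addition to Bmp2, Bmp4 and Bmpr2, and with centring on the median 2, Bmp2 and Bmp4. Bmp2 had a log2 difference between 0.53 and 0.86 in the fits, the ends being those without 1 array of experiment 2 and without 1 array of experiment 1, and an adjusted p between 0.116 and 0.395. Bmp4 lay between 0.29 and 0.43, and Id3 between -0.13 and -0.09. The sign turned in experiment 1 alone for Bmp7 (-0.010), Bmpr1b (-0.060), Id1 (0.010) and Id2 (-0.020), and for Bmpr1b without either array of experiment 2 (-0.010 and -0.015, against up to 0.085 without an array of experiment 1). Bmpr1b was not among the probe sets at or above the median level. With 1 residual degree of freedom, differences of the size seen in the Id genes cannot be told from 0.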
